A study of Mus musculus with 18 samples.

Results

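Egr1, Egr2 and Egr3, which encode zinc finger transcription factors of the early growth response family, and Nab1 and Nab2, which encode the corepressors that bind them, were followed through mouse basophils given antigen. The 5 genes were taken by symbol from the 56413 genes of the count table (Egr1 ENSMUSG00000038418, Egr2 ENSMUSG00000037868, Egr3 ENSMUSG00000033730, Nab1 ENSMUSG00000002881, Nab2 ENSMUSG00000025402), and all 5 were among the 14076 genes abundant enough to test. The basophils were cultured from bone marrow with interleukin-3 (0.3 ng/mL, 7 days), loaded on day 6 with IgE directed at the hapten TNP (1 µg/mL) and purified by magnetic beads for CD49b, with 50000 cells used per sample. WT cells and cells labelled TTP-KO, lacking tristetraprolin, an RNA-binding protein encoded by Zfp36 that speeds the decay of messenger RNAs holding AU-rich elements, were each given 1 of 3 treatments. These were control OVA (2 h) and TNP-OVA (2 h or 4 h), each at 10 ng/mL, of which TNP-OVA carries the hapten that the IgE binds. Polyadenylated RNA of 3 libraries in each of the 6 groups was sequenced. A control at 4 h was not analysed here, so each 4 h value is set against the 2 h control. The labels do not give the age of the mice, and do not say which part of Zfp36 was altered or whether libraries within a group were made from different animals or cultures. What the p-values measure is thus the spread from library to library, possibly a technical one.

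EGR proteins are made within minutes to hours of receptor signals and bind GC-rich sites through 3 zinc fingers. Serum response factor (SRF) and its ETS-family partners, which are substrates of the kinase ERK, are a well known route to their induction, through CArG boxes in the promoter. NAB proteins do not bind DNA themselves. They dock on a repression domain that EGR1, EGR2 and EGR3 share and recruit the NuRD chromatin complex through CHD4, and NAB genes can themselves be EGR targets, which makes a feedback loop. In lymphocytes EGR2 and EGR3 are known for restraining activation, and in mast cells EGR1 is known as a factor induced by IgE and antigen.

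The promoters of Egr2 and Nab1 are shown because they hold the letters of the SRF site and of the EGR site, the input and the output of this loop. Both are the 250 bases before the gene's start in RefSeq (GRCm38.p6), printed 5′ to 3′ on the gene's own strand, at chr10:67537619-67537868 (plus strand) for Egr2 and at chr1:52500449-52500698 (minus strand) for Nab1. Capitals mark the CArG box in Egr2 and, in Nab1, every match to GCGNGGGCG on either strand.
Egr2: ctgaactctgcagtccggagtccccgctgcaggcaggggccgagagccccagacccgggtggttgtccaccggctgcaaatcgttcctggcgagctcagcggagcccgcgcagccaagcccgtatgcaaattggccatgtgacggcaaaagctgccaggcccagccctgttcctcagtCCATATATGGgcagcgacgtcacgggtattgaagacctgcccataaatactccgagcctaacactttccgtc
Nab1: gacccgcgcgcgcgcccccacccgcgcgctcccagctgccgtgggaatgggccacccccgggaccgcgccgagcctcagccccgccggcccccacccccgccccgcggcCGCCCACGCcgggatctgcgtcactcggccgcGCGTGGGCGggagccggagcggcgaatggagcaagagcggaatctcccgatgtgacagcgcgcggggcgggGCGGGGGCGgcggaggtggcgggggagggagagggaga
The Egr2 window holds a CArG box, CCATATATGG, at -72 to -63 from the start. Of 32851 RefSeq promoter windows, each 300 bases long and reaching 50 bases past the start, 1.63% held a CArG box on either strand. RefSeq listed 5 windows for Egr2, and 1 of the others held a different CArG box, CCTTTTTTGG. Nab1 held the EGR site GCGTGGGCG at 2 places, on the minus strand at -141 to -133 and on the plus strand at -109 to -101, and the looser form GCGNGGGCG, which includes both of these, at a further place at -38 to -30. The strict site was in 0.612% of the windows and the looser one in 5.55%, and 7 windows (0.0213%) held the strict site 2 or more times. The cyclic AMP response element TGACGTCA (1.79% of windows) matched none of the windows of Egr2, Nab1 and Nab2, and the NFAT core GGAAA (61.3% of windows) matched windows of Egr2 but not those of Nab1 or Nab2. The 1 window of Nab2 held none of the motifs searched. Windows of Egr1 and Egr3 are not reported here, so whether they hold these motifs is left unstated. These are matches of letters, in a window of another genome build than that of the counts (GRCm39), and binding was not measured.

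Library totals ran from 5516580 to 12733200 estimated counts, and the 5 genes had between 195 and 5725 estimated counts in each library. Levels are given as counts per 1000000 (CPM) after scaling between libraries, with SDs over 3 libraries, and log2 fold changes carry standard errors. Zfp36 RNA stood at 224 ± 4.46 CPM in TTP-KO and 237 ± 11.4 CPM in WT control (edgeR adjusted p = 0.601), at 564 ± 9.92 and 448 ± 10.6 CPM at 2 h, where it was higher in TTP-KO (3.16e-04), and at 324 ± 23.9 and 295 ± 22.7 CPM at 4 h (0.151). These levels are no check of the labels, on which every genotype difference rests. None of the 10 basophil markers was at 0 in any group. At 4 h they summed to between 20522 and 20978 CPM in TTP-KO and between 21310 and 22335 CPM in WT, with 4 of 10 lower in TTP-KO (Mcpt8, Ms4a2, Gata2 and Cyp11a1). The 8 mast cell markers summed to between 957 and 993 CPM in TTP-KO and between 1086 and 1129 CPM in WT at 4 h, with the protease genes Cma1 and Tpsb2 lower, 2 of the 6 tested, and Mrgprb2 at 0 in both groups. At 4 h the 10 neutrophil markers summed to between 1700 and 1940 CPM in TTP-KO and between 876 and 972 CPM in WT, with 6 of 10 higher in TTP-KO. The 10 macrophage markers summed to 7846 to 8496 CPM in TTP-KO against 6430 to 6738 CPM in WT (6 of 10 higher). The dendritic cell markers summed to 2078 to 2206 CPM against 3222 to 3341 CPM, with 2 of 5 tested lower, Cd74 and H2-Ab1. These 2 genes made up most of that sum (means of 2543 and 607 CPM in WT at 4 h). The other tested ones, Itgax, Zbtb46 and Batf3, did not pass. The 12 T, B and NK cell markers summed to between 26.7 and 29.8 CPM in TTP-KO and between 49.6 and 58.8 CPM in WT, with 4 of the 5 tested lower. Of all tested genes, 5.22% had an edgeR adjusted p under 0.05 between genotypes at 4 h, in either direction. In bulk RNA, a change in the number of cells of a type and a change in RNA per cell cannot be told apart.

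All 5 genes rose within 2 h of antigen, Egr3 by 10.9-fold and Egr1 by 7.82-fold in the WT means, Egr2 by 3.84-fold, Nab2 by 3.42-fold and Nab1 by 1.74-fold. By 4 h all 5 had fallen again, and by unequal amounts: Egr3 and Egr1 had returned to 24.9% and 27.6% of their 2 h means in WT, Nab2 to 35.9% and Nab1 to 58.4%, while Egr2 stood at 66.5%. At 4 h Egr3 and Nab1 were lower in TTP-KO than in WT.

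**Figure D1:**
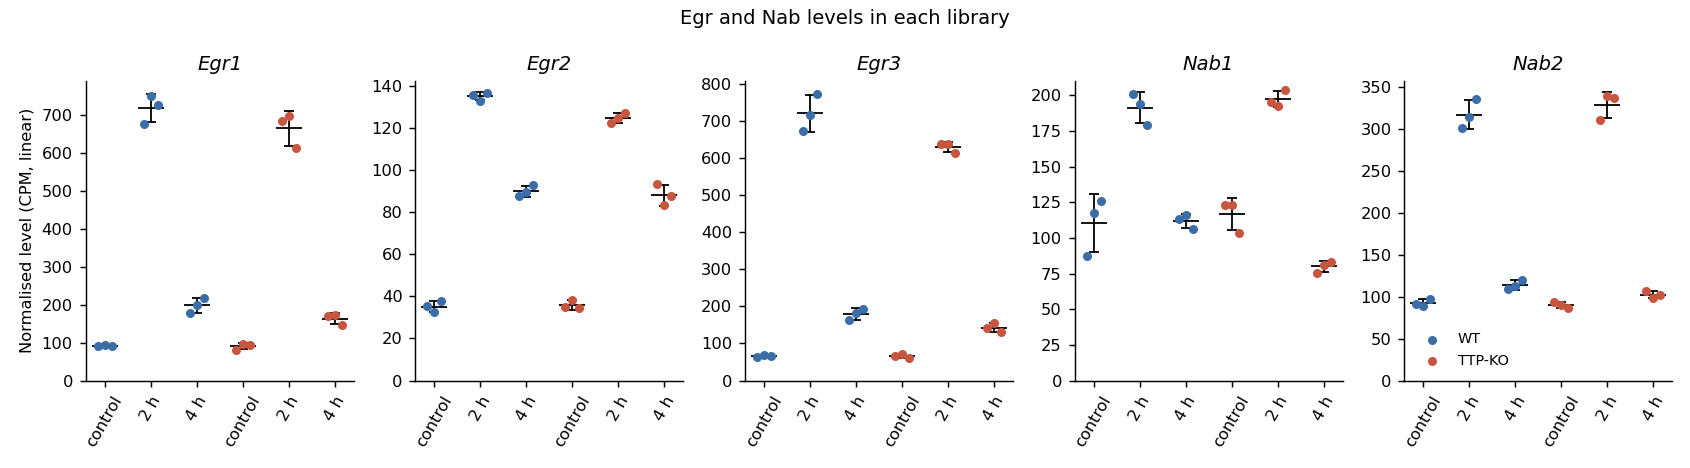
Each point is 1 library, as counts per 1000000 (CPM) on a linear axis from 0 that differs between the 5 panels, for control, 2 h and 4 h in WT (blue) and TTP-KO (red). Bars are the mean and SD of 3 libraries. All genes are highest at 2 h, and at 4 h the Nab1 libraries of TTP-KO (75.6 to 83.4 CPM) lie below those of WT (106 to 116 CPM).

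Egr1 encodes the founding member of the family and is a standard marker of recent receptor signalling. WT libraries had 89.7, 93.8 and 91.6 CPM in control, 676, 750.4 and 726 CPM at 2 h, and 177, 198 and 218 CPM at 4 h. TTP-KO libraries had 81.3, 96.5 and 92.9 CPM in control, 683, 697 and 612 CPM at 2 h, and 169.9, 172 and 146 CPM at 4 h. Within each genotype the 3 conditions did not overlap, with 2 h highest and control lowest. The genotypes overlapped in control and at 2 h, and at 4 h all 3 TTP-KO libraries lay below all 3 WT libraries.

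Egr3, the family member with the largest change, ran close to Egr1. In WT it stood at 63.1, 69.6 and 65.0 CPM in control, at 673, 716 and 772 CPM at 2 h, and at 162, 182 and 194 CPM at 4 h. The TTP-KO values were 66.6, 71.9 and 60.2 CPM in control, 637, 637 and 615 CPM at 2 h, and 143, 155 and 131 CPM at 4 h. Again the conditions did not overlap within a genotype, and the 2 h level was the highest. TTP-KO lay below WT in every library at 2 h and at 4 h, and not in control.

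Egr2, which acts beside Egr3 in lymphocytes, moved less and fell back less. Its WT values were 35.4, 32.4 and 37.7 CPM in control, 136, 133 and 137 CPM at 2 h, and 87.5, 89.4 and 92.8 CPM at 4 h. In TTP-KO they were 35.0, 38.4 and 34.3 CPM in control, 122, 125 and 127 CPM at 2 h, and 93.3, 83.2 and 87.7 CPM at 4 h. The 2 h libraries of TTP-KO lay below those of WT without overlap, and in control and at 4 h the genotypes overlapped.

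Among the corepressors, Nab2 is the one known as an early response gene. It stood at 91.0, 89.2 and 97.3 CPM in WT control, at 301, 313 and 336 CPM at 2 h, and at 109, 112 and 119.9 CPM at 4 h. TTP-KO libraries had 93.6, 90.4 and 86.2 CPM, then 310.2, 338 and 336 CPM, and at 4 h 107, 98.1 and 102 CPM. At 4 h WT and TTP-KO did not overlap (lowest WT 109 CPM, highest TTP-KO 107 CPM), and both groups lay above their own controls. Exons of Nab2 overlap, on the opposite strand, those of Stat6 (591 to 1352 estimated counts per library), Nemp1 (41.02 to 150.19) and Gm16229 (0 to 17.98), by name in the GENCODE vM21 annotation. How the counting treated strand is not stated in any source used here, so reads of these genes cannot be told apart where they overlap. Stat6 itself had a 2 h log2 fold change of 0.11 ± 0.06 in WT (edgeR, Benjamini-Hochberg adjusted p = 0.176), against 1.77 for Nab2.

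Nab1, the corepressor with the EGR site printed above, is usually described as the more constant of the pair. WT libraries had 87.3, 118 and 126 CPM in control, 201, 194 and 179 CPM at 2 h, and 113, 116 and 106 CPM at 4 h. The first control library was thus lower than the other 2, and the 4 h libraries lay within the range of the controls. TTP-KO libraries had 123, 123 and 104 CPM in control, 195, 193 and 204 CPM at 2 h, and 75.6, 81.1 and 83.4 CPM at 4 h. Here all 3 libraries at 4 h lay below every control library of either genotype.

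Antigen for 2 h raised all 5 genes in WT, in a comparison in which 35.1% of tested genes passed the threshold (adjusted p under 0.05 by edgeR's quasi-likelihood test with Benjamini-Hochberg adjustment over all tested genes). By size of change among the 4944 genes called, Egr3 had rank 21, Egr1 rank 57, Egr2 rank 247, Nab2 rank 317 and Nab1 rank 1498. The log2 fold changes were 3.45 ± 0.08 for Egr3 (edgeR adjusted p = 3.85e-18) and 2.97 ± 0.09 for Egr1 (2.32e-14). They were 1.93 ± 0.07 for Egr2 (edgeR adjusted p = 1.07e-19), 1.77 ± 0.06 for Nab2 (2.29e-20) and 0.79 ± 0.10 for Nab1 (1.36e-05). The median of the 5 was 1.93, and that of all tested genes -0.05. In TTP-KO all 5 rose too, where 34.5% of tested genes passed, with log2 fold changes of 3.25 ± 0.08 for Egr3, 2.88 ± 0.09 for Egr1, 1.79 ± 0.07 for Egr2, 1.87 ± 0.06 for Nab2 and 0.76 ± 0.10 for Nab1. Their edgeR adjusted p-values ran from 7.40e-21 to 2.08e-05.

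From 2 h to 4 h all 5 genes fell in both genotypes, where 31.1% of tested genes passed in WT and 30.8% in TTP-KO. In WT the log2 change was -2.01 ± 0.07 for Egr3, -1.86 ± 0.08 for Egr1, -1.48 ± 0.06 for Nab2, -0.77 ± 0.10 for Nab1 and -0.59 ± 0.06 for Egr2 (edgeR adjusted p from 3.54e-18 to 2.37e-05). In TTP-KO it was -2.14 ± 0.07 for Egr3, -2.03 ± 0.08 for Egr1, -1.68 ± 0.06 for Nab2, -1.30 ± 0.11 for Nab1 and -0.50 ± 0.06 for Egr2 (edgeR adjusted p from 2.17e-19 to 1.82e-07). Egr2 was thus the gene with the smallest decline in both genotypes, and Nab1 the one with the widest gap between genotypes. Over the same interval in WT, 7 of 10 basophil markers and 7 of 10 neutrophil markers fell, while the basophil marker Ms4a2 rose (0.49 ± 0.06). The basophil markers summed to between 24463 and 25646 CPM at 2 h and between 21310 and 22335 CPM at 4 h. The neutrophil markers summed to between 1092 and 1378 CPM and then between 876 and 972 CPM. Mast cell marker sums fell too (1374 to 1425, then 1086 to 1129 CPM), as did macrophage sums (7191 to 7801, then 6430 to 6738 CPM). Dendritic cell marker sums rose (2890 to 3119, then 3222 to 3341 CPM). Most of this sum was Cd74 (means of 2307, then 2543 CPM). Cd74, Itgax and Batf3 passed as higher, and H2-Ab1 and Zbtb46 did not pass. The part of these markers in the declines was not tested.

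Against the 2 h control, 4 of the 5 genes were still higher at 4 h in WT, where 38.0% of tested genes passed. Egr3 stood 1.45 ± 0.08 above control on the log2 scale, Egr2 1.34 ± 0.07 and Egr1 1.11 ± 0.09 (edgeR adjusted p = 6.82e-12, 9.31e-16 and 1.66e-08), and Nab2 0.30 ± 0.06 (1.19e-04). Nab1 did not pass (0.02 ± 0.10, edgeR adjusted p = 0.906). In TTP-KO all 5 passed, where 35.0% of tested genes did: Egr2 at 1.29 ± 0.07, Egr3 at 1.11 ± 0.08, Egr1 at 0.84 ± 0.09 and Nab2 at 0.19 ± 0.06 above control, and Nab1 at -0.54 ± 0.11, below it. Their edgeR adjusted p-values were 2.45e-15, 5.17e-10, 6.06e-07, 0.0107 and 7.86e-04 in that order. The call of Nab2 in TTP-KO was lost without control library 3 (adjusted p = 0.0679) or 4 h library 1 (0.0686), and with scaling by library totals alone its value was 0.05 (0.494).

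**Figure D2:**
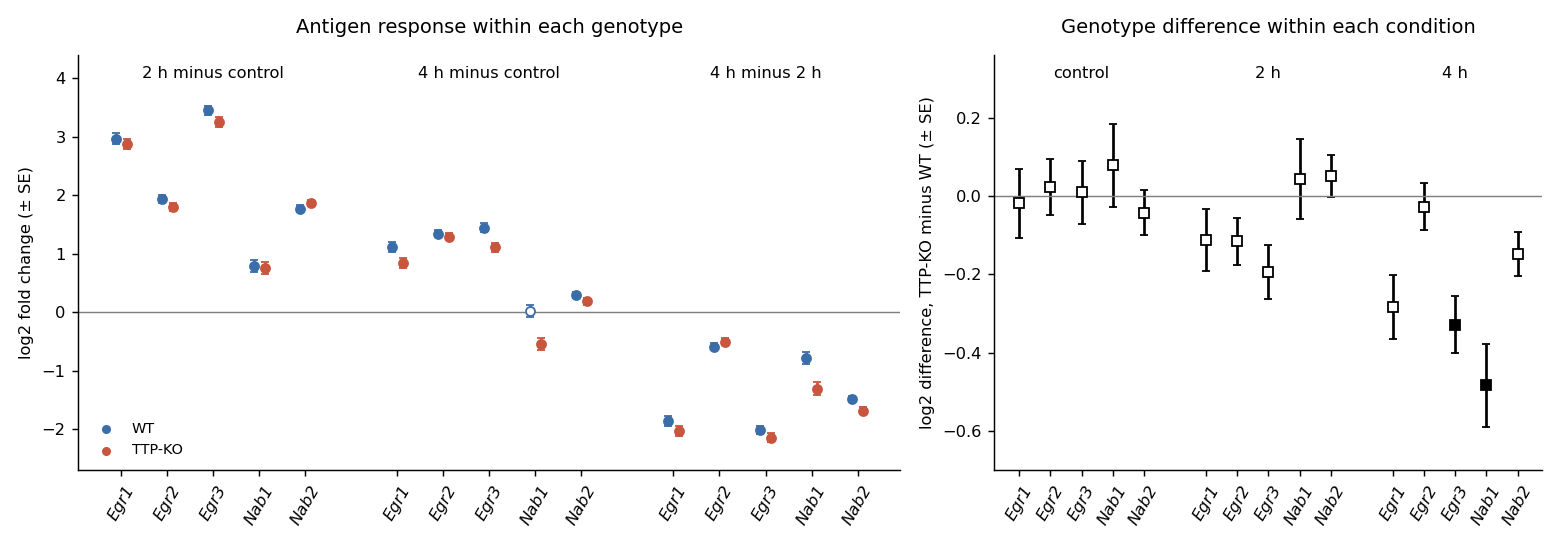
Left, log2 fold changes with standard errors between conditions within WT (blue) and TTP-KO (red). Right, log2 differences of TTP-KO minus WT with standard errors within control, 2 h and 4 h. Filled symbols passed the threshold of 0.05 on edgeR's adjusted p. The right panel has 2 filled symbols, Egr3 (-0.33) and Nab1 (-0.48) at 4 h, and in the left panel only Nab1 at 4 h in WT is open.

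The 5 genes did not keep a constant ratio to each other. For each pair, the log2 ratio of their counts was taken within every library, where scaling between libraries cancels, and conditions were compared by a 2-sided exact permutation test within each genotype, together over both (smallest possible p 0.005). Genotypes were compared by the same kind of test within each condition, together over all conditions, where smaller p-values are possible. Of the 40 tests of both kinds, which were added after the values had been seen, 28 passed after Benjamini-Hochberg adjustment. All that passed were between conditions. Egr1 gained on Egr2 at 2 h, from 1.28 to 1.53 in WT control libraries to 2.32 to 2.50 at 2 h, and dropped below its starting ratio at 4 h (1.01 to 1.23). TTP-KO did the same, with 1.21 to 1.44 in control, 2.27 to 2.48 at 2 h and 0.73 to 1.05 at 4 h. The mean change of this log2 ratio was 1.05 at 2 h and -1.40 from 2 h to 4 h (exact permutation p = 0.005 and adjusted p = 0.00741 for each).

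Egr3 gained on Egr1 at 2 h, as the Egr1/Egr3 log2 ratio changed by -0.43, and lost 0.13 of this by 4 h (exact permutation p = 0.005, adjusted p = 0.00741 for each). Egr2 and Egr3, by contrast, moved apart by -1.48 at 2 h and together again by 1.53, and their ratio at 4 h differed from control by -0.084 in WT and 0.18 in TTP-KO, opposite changes with a mean of 0.050 (exact permutation p = 0.555). The Egr2/Nab2 ratio at 2 h changed by 0.17 in WT, whose libraries did not overlap (-1.46 to -1.36 in control, -1.30 to -1.15 at 2 h), and by -0.068 in TTP-KO, whose libraries did, with a mean of 0.050 (exact permutation p = 0.375). Egr2 then gained 1.03 on Nab2 between 2 h and 4 h (exact permutation p = 0.005, adjusted p = 0.00741). Of the corepressors, Nab1 lost 1.03 to Nab2 at 2 h, as their log2 ratio changed by -1.03, and regained 0.54 by 4 h (exact permutation p = 0.005, adjusted p = 0.00741 for each). At 4 h every EGR gene stood higher relative to Nab2 than in control, with changes of 1.08 for Egr2, 1.03 for Egr3 and 0.73 for Egr1, and higher relative to Nab1 (1.58, 1.53 and 1.23), each with exact permutation p = 0.005 and adjusted p = 0.00741. Between genotypes, with the difference averaged over the 3 conditions, none of the 10 ratios passed. The lowest exact permutation p was 0.0438 (adjusted p = 0.0603), for Egr3/Nab2, with a log2 difference of -0.13, and leaving out any of 3 libraries in turn (TTP-KO control 2, TTP-KO 4 h 2 or WT control 3) brought its adjusted p to between 0.0210 and 0.0325. Egr2/Egr3, at 0.13 (exact permutation p = 0.05, adjusted p = 0.0667), came to between 0.0328 and 0.0410 without WT 2 h library 1, WT control library 3 or TTP-KO 4 h library 2. Such an average cannot show differences that point opposite ways. The Egr2/Nab1 ratio, picked out after its values were seen, differed between genotypes by -0.061 in control, -0.16 at 2 h and 0.45 at 4 h, where WT libraries (-0.37 to -0.19) and TTP-KO libraries (0.036 to 0.30) did not overlap. A test at 4 h alone, of 3 libraries against 3, could not give an exact p below 0.1.

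**Figure D3:**
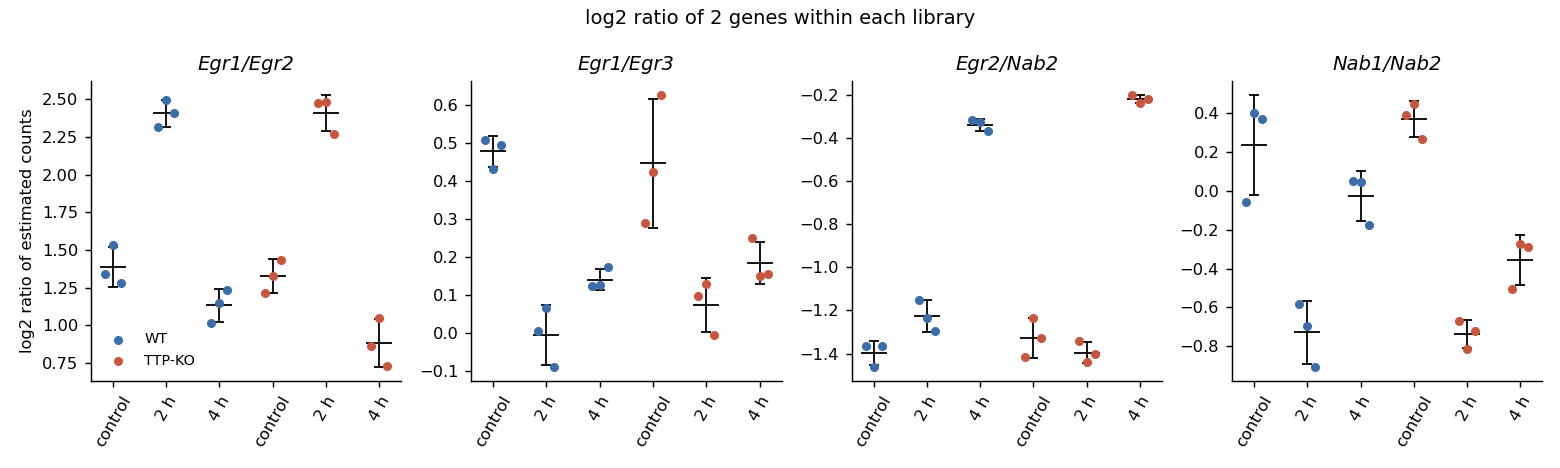
Each point is the log2 ratio of the estimated counts of 2 genes in 1 library, for 4 of the 10 pairs, in WT (blue) and TTP-KO (red), with bars for the mean and SD of 3 libraries. The level of a ratio depends on the lengths of the genes, so only its changes are compared. Egr1/Egr2 is highest at 2 h (2.27 to 2.50) and Egr2/Nab2 highest at 4 h (-0.37 to -0.20).

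Across all 18 libraries, Pearson's r of log2 CPM was 0.997 between Egr1 and Egr3, 0.972 between Egr1 and Nab2, and 0.926 between Egr2 and Egr3. It was 0.879 between Nab1 and Nab2 and lowest, 0.507, between Egr2 and Nab1. These are descriptions, since the libraries share 6 group means and any gene that rises and falls with antigen will follow them. Of 9740 genes compared in the same way, those nearest to Egr1 were Baz1a, a chromatin remodelling subunit (0.997), Srxn1, Plek, Fam107b and the corepressor Tle3 (0.993). Egr3 was nearest to Srxn1, the sulfiredoxin gene (0.997), the nuclear receptor Nr4a3 (0.997), the growth factor Csf1 (0.995), Baz1a and Ppp1r2. Egr2 had other neighbours: Pdcd1lg2, which encodes the PD-1 ligand PD-L2 (0.994), Creb3l2, Sema7a, Prrg4 and the inhibitor of bHLH factors Id2 (0.993). Nearest to Nab2 were Serpinb2, Ggct, the chromatin organiser Satb1, the cytokine Il13 (0.992) and Slc38a1. Nab1 had weaker ones, led by the kinase Jak2 (0.959), Fnip2, Marcksl1, Ninj1 and Mxd1 (0.939).

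Between genotypes, none of the 5 genes passed in control cells, where 1.65% of tested genes did (edgeR; none had an unadjusted p under 0.05, and DESeq2 called none). The log2 differences, TTP-KO minus WT, lay between -0.04 (Nab2) and 0.08 (Nab1). After 2 h none of the 5 passed either, where 2.79% of tested genes did (1 had an unadjusted p under 0.05 and DESeq2 called none). Egr3 was at 629.7 ± 13.1 CPM in TTP-KO and 720.3 ± 49.4 CPM in WT, a log2 difference of -0.19 ± 0.07 (edgeR adjusted p = 0.164). Egr2 was at 125 ± 2.28 against 135 ± 1.93 CPM, with -0.12 ± 0.06 (edgeR adjusted p = 0.383), and Egr1 at 664 ± 45.3 against 718 ± 37.8 CPM, with -0.11 ± 0.08 (0.574). The corepressors stood at 0.04 ± 0.10 (Nab1) and 0.05 ± 0.05 (Nab2).

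At 4 h Nab1 and Egr3 were lower in TTP-KO, 2 of the 5 genes, where 5.22% of tested genes passed in either direction. Nab1 had 80.0 ± 4.01 CPM in TTP-KO and 112 ± 5.01 CPM in WT, a log2 difference of -0.48 ± 0.10 (edgeR adjusted p = 0.0116). Egr3 had 143 ± 12.1 against 179 ± 15.8 CPM, a difference of -0.33 ± 0.07 (edgeR adjusted p = 0.00839). Neither call held in every fit with 1 library left out. Without WT 4 h library 2 both were lost (adjusted p = 0.0566 for each). Nab1 was also lost without TTP-KO 4 h library 1 (0.0624), and Egr3 without WT 4 h library 3 (0.0525) or TTP-KO 4 h library 3 (0.0545). The differences themselves stayed between -0.52 and -0.44 for Nab1 and between -0.39 and -0.27 for Egr3.

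Egr1 and Nab2 also lay lower in every TTP-KO library at 4 h, without passing. Egr1 stood at 162 ± 14.6 against 198 ± 20.7 CPM, a log2 difference of -0.28 ± 0.08 (edgeR adjusted p = 0.0584), and DESeq2 called it (adjusted p = 0.00411). For Nab2 the levels were 102 ± 4.54 and 114 ± 5.51 CPM, a difference of -0.15 ± 0.06 (edgeR adjusted p = 0.138). Egr2 overlapped between genotypes, at 88.0 ± 5.05 and 89.9 ± 2.65 CPM (-0.03 ± 0.06, edgeR adjusted p = 0.887). The basophil, mast cell, neutrophil, macrophage, dendritic and lymphoid marker sums given above did not overlap between genotypes at 4 h either, and their part in these differences was not tested. In control cells the basophil marker sums overlapped between genotypes (23329 to 24769 CPM in TTP-KO, 22350 to 23521 CPM in WT). The neutrophil markers summed there to 1700 to 2030 CPM in TTP-KO and 1145 to 1316 CPM in WT. The macrophage markers summed to 8620 to 8857 CPM in TTP-KO and 7451 to 7569 CPM in WT. The mast cell, dendritic and lymphoid sums were lower in TTP-KO in control too, without overlap.

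Whether the response itself differed between genotypes was tested by interaction terms. At 2 h none of the 5 genes passed, where 0.0497% of tested genes did, with differences of log2 response (TTP-KO minus WT) from -0.20 ± 0.11 for Egr3 to 0.09 ± 0.08 for Nab2 (none had an unadjusted p under 0.05, and DESeq2 called none). For the 4 h response 0.689% of tested genes passed and again none of the 5, although 3 had an unadjusted p under 0.05 and DESeq2 called 1, Nab1. The difference between the 4 h responses was -0.56 ± 0.15 for Nab1 (edgeR adjusted p = 0.124, DESeq2 adjusted p = 0.00383), -0.34 ± 0.11 for Egr3 (edgeR adjusted p = 0.220) and -0.27 ± 0.12 for Egr1 (0.448). The Nab1 term passed in edgeR without WT control library 1 (adjusted p = 0.0426) or WT control library 3 (0.0212). The change from 2 h to 4 h gave 0.313% of tested genes and none of the 5 (2 with an unadjusted p under 0.05), with Nab1 at -0.53 ± 0.15 (edgeR adjusted p = 0.207) and DESeq2 calling that gene alone (adjusted p = 0.0105).

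The rest of the family was nearly silent. Egr4 had 7 counts over all libraries and was at 0 in 13 of 18, and Wt1, whose zinc fingers bind similar sites, had 1 count in all. Sp1 and Sp3, general factors of GC-rich promoters, moved little at 2 h in WT, Sp1 by 0.26 ± 0.07 and Sp3 by -0.20 ± 0.07 on the log2 scale, both past the threshold in edgeR, and neither passed between genotypes at any time.

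The RNAs of the factors that act upstream changed in both directions. Of 6 genes for SRF, its ETS partners and its MRTF coactivators, 3 rose and 1 fell at 2 h in WT. There 35.1% of all tested genes passed, and the medians were 0.28 for the 6 and -0.05 for all tested genes. Mrtfa, an actin-sensing coactivator of SRF, fell from 92.1 ± 6.61 to 32.5 ± 3.71 CPM (SE of the log2 change 0.09), while Elk4 (0.52 ± 0.06), Srf (0.50 ± 0.10) and Elk3 (0.32 ± 0.09) rose. TTP-KO had 1 called in each direction, Elk4 at 0.47 and Mrtfa at -1.39, and no gene of the 6 passed between genotypes in control, at 2 h or at 4 h. Of 17 genes of the Ras to ERK cascade, 7 rose and 6 fell at 2 h in WT. The exchange factor Rasgrp1 (1.14 ± 0.18) and Nras (0.64 ± 0.04) were among those that rose. None of the 17 passed between genotypes in control or at 2 h. At 4 h, where 5.22% of all tested genes passed, 4 were lower in TTP-KO. Among them were the exchange factor Sos1 (-0.60 ± 0.13), Nras (-0.19 ± 0.04) and Rps6ka1 (-0.17 ± 0.05), a kinase that ERK activates.

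NuRD is the complex that NAB proteins recruit. At 2 h in WT, where 35.1% of all tested genes passed, 4 of its 13 genes rose and 2 fell. The largest changes were in the remodeller Chd3 (1.26 ± 0.05) and the histone-binding subunit Rbbp7 (0.90 ± 0.06), with Mta3 at -0.36 ± 0.09 and Hdac1 at 0.27 ± 0.08. Chd4, the subunit reported to bind NAB proteins, was the single gene of the 13 to pass between genotypes, higher in TTP-KO at 4 h by 0.24 ± 0.06. Of all tested genes, 1.65% passed between genotypes in control, 2.79% at 2 h and 5.22% at 4 h, so 1 call among 13 genes is not set apart.

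Of 30 genes reported as EGR targets in other cells, 29 could be tested. At 2 h in WT, where 35.1% of all tested genes passed, 16 rose and 5 fell, with a median log2 fold change of 0.58. The cytokine gene Il13 rose by 3.09 ± 0.06, from 96.8 ± 6.06 to 825 ± 35.2 CPM, the signalling inhibitors Socs1 and Socs3 by 2.20 ± 0.06 and 1.85 ± 0.07, and the sphingosine kinase gene Sphk1 by 2.01 ± 0.16. TTP-KO, where 34.5% of all tested genes passed, also had 16 higher and 5 lower, with a median of 0.49. Between genotypes 1 was higher and 3 were lower in TTP-KO in control, where 1.65% of all tested genes passed. The higher one was the protease gene Plau (0.63 ± 0.10), and the lower ones were Icam1, Bcl2l11 and Cdkn1a. At 2 h 3 were higher and 3 lower in TTP-KO, among them Gdf15 (0.88 ± 0.22), Il13 (0.55 ± 0.05), Plau (0.53 ± 0.10) and Gadd45b (-0.23). Of these 4, only Plau had passed in control. At 4 h 1 was higher and 5 were lower, among them the chemokine gene Ccl1 (-0.88 ± 0.18), Socs3 (-0.56 ± 0.07), Socs1 (-0.56 ± 0.06) and Plau (0.49 ± 0.09). Of all tested genes, 2.79% passed between genotypes at 2 h and 5.22% at 4 h. The 29 genes were listed with earlier results of these data known. Their medians, -0.06 at 2 h and -0.05 at 4 h, lay near those of all tested genes (0.00 and 0.01). Whether EGR proteins act on these genes in basophils was not measured.

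**Figure D4:**
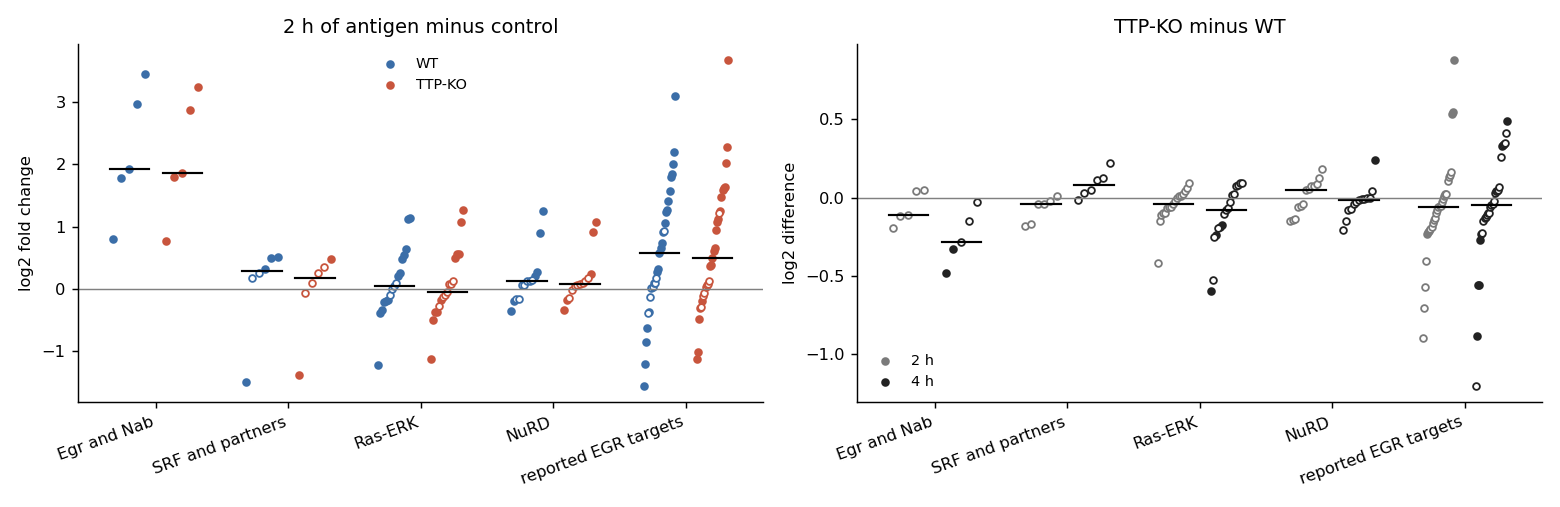
Each point is 1 tested gene, filled where edgeR's adjusted p was under 0.05, in the 5 gene lists named on the horizontal axis, and black bars are list medians. Left, the log2 fold change at 2 h of antigen over control in WT (blue) and TTP-KO (red). Right, the log2 difference of TTP-KO minus WT at 2 h (grey) and 4 h (black). In the left panel all Egr and Nab genes are filled and above 0 (median 1.93 in WT), while the other lists hold filled points on both sides of 0.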

How the data were processed

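Bulk RNA-seq of 18 libraries in 6 groups was used as the authors' deposited table of estimated counts per gene (expected counts as RSEM writes them, not normalized). Tools in the submitters' processing notes, listed without roles, are STAR 2.7.10a, cutadapt 3.5, RSEM 1.3.1 and R (4.4.0 and 4.4.1), with genome build GRCm39. The annotation and the strandedness of counting are not given in the sources used here. Columns named as unstimulated were matched to the control OVA libraries.

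Rounded counts went into edgeR 4.0.16 (R 4.3.3): filterByExpr on the 6 groups, TMM scaling, and the robust quasi-likelihood test with 1 mean per group over all 18 libraries (12 residual degrees of freedom). It gave 12 contrasts (3 between genotypes, 6 between conditions, 3 interactions), each adjusted by Benjamini-Hochberg over 14076 genes at a threshold of 0.05. Standard errors are the log2 fold change over the square root of F. CPM use TMM-scaled totals. Tested genes held 99.8% of counts, mitochondrial genes took 1.72% to 2.14%, and the biological coefficient of variation was 0.0905. An exact test of 3 libraries against 3 cannot give p below 0.1.

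The members and lists were chosen with earlier results of these data known. Named beside the 5 members were, from each list, up to 4 called genes with the largest change at 2 h in WT and in each genotype contrast, or the 2 smallest p where none passed, and for each member the 5 genes of highest Pearson r over the libraries (mean log2 CPM of at least 2, no identifier or clone names); not all are printed, and some are not reported here. Other list genes followed into TTP-KO were chosen after their values were seen. Alternatives were RLE scaling, no filter, DESeq2 1.42.0, only the groups compared, a replicate block, leaving out each library and, added after seeing the data, scaling by totals alone. The model was tested on simulated data. Promoters came from RefSeq, and ratio tests and motif searches were run in Python 3.11.15.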

Additional observations from a re-analysis of the deposited data

How the results depend on the processing

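Of 60 member changes (5 genes in 12 contrasts), 43 kept their direction and side of the threshold under every alternative, and of 31 called changes 28 stayed called throughout. The exceptions were Egr3 and Nab1 between genotypes at 4 h and Nab2 at 4 h in TTP-KO. The cause of each move listed here was not tested.

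Without a filter on low counts, 1 member passed between genotypes at 2 h (Egr3), 2 in the 4 h interaction and 1 in the 2 h to 4 h interaction, and the genes called were 399 between genotypes in control (232 with the filter), 55 in the 2 h interaction (7), 259 in the 4 h interaction (97) and 134 in the 2 h to 4 h interaction (44). DESeq2 called 22, 176 and 103 genes in these 3 interactions, with 1 member in the 4 h and 1 in the 2 h to 4 h interaction, Nab1 in both. With only the groups compared in the fit, 149 genes were called between genotypes in control, 1130 at 4 h (735 with all groups) and 11 in the 2 h interaction, with 1 member (Egr3) between genotypes at 2 h and 1 (Nab1) in the 2 h to 4 h interaction. Egr1 between genotypes at 4 h passed without the filter, in DESeq2, with a replicate block, with totals alone (adjusted p = 0.0361) and without WT 4 h library 1 (0.01005).

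Scaling by library totals alone, added after seeing the data, moved the median of all genes to -0.37 at 2 h in both genotypes and called 7696 genes in WT and 7676 in TTP-KO (4944 and 4852 with TMM). Under it, Egr1 between genotypes in control was 0.013 and Nab1 at 4 h in WT -0.10. Over all alternatives, the 2 h log2 change of Nab1 went down to 0.47 in WT and 0.42 in TTP-KO. It was 0.79 and 0.76 in the main fit, and at least 0.65 and 0.67 with 1 library left out. All 5 members stayed called at 2 h in both genotypes.

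Leaving out 1 library at a time gave 145 to 190 genes between genotypes in control, 228 to 369 at 2 h (393 with all), 466 to 551 at 4 h, 4 to 8 in the 2 h interaction, 46 to 133 in the 4 h interaction and 25 to 53 in the 2 h to 4 h interaction. Members called ranged from 0 to 3 between genotypes at 4 h and from 0 to 1 in the 4 h interaction. Some changes near 0 that were not called switched sign. Between genotypes in control, Egr1 ranged from -0.068 to 0.048, Egr2 from -0.029 to 0.079, Egr3 from -0.057 to 0.077 and Nab1 from -0.068 to 0.19. At 2 h Nab1 ranged from -0.0093 to 0.064 and Nab2 from -1.3e-06 to 0.090, and at 4 h Egr2 from -0.072 to 0.011. Nab1 at 4 h in WT ranged from -0.12 to 0.14 and its 2 h interaction from -0.15 to 0.11. Of the ratios between genotypes, Egr1/Nab1 ranged from -0.061 to 0.022 and Egr2/Nab2 from -0.0075 to 0.023. Egr2/Egr3 passed in 3 such fits (adjusted p from 0.0328 to 0.0410) and Egr3/Nab2 in 3 (0.0210 to 0.0325).

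What a replicate number marks is not stated, and no shared shift of same-numbered libraries was seen. The correlation of their deviations ran from -0.081 to 0.041 over 45 such pairs, and a library correlated best with its own number in 26 of 90 cases. This cannot show whether same-numbered samples were paired by animal or culture. With the replicate number as a block, Egr1 between genotypes at 4 h was -0.28 (edgeR adjusted p = 0.0397), and the number of members called moved in no other contrast.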
